A study of Mus musculus with 2 samples.

Results

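The transcripts described here are those of 4 genes, Cd3d, Cd8a, Ctla4 and Rac2, out of the 379 genes of a mouse tissue panel read in skin sections by Xenium In Situ, an imaging assay that decodes single RNA molecules where they lie in the tissue. Members were taken by gene name, among transcripts whose decoding quality score was at least 20. There were 1914 such transcripts in the mock section, of 2461475 over the whole panel, and 11736 in the SspA+HDM section, of 8124205. The mock section held 291 transcripts of Cd3d, 76 of Cd8a, 399 of Ctla4 and 1148 of Rac2. In SspA+HDM the same genes gave 1631, 980, 1202 and 7923.

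The study compared dorsal skin of C57BL/6 mice at day 7 after PBS (mock) or SspA and HDM together had been put on the skin surface. Both groups had been shaved and depilated, and both were fixed in formalin, embedded in paraffin and cut at 5 µm. There was 1 sample per treatment, the labels do not give the age or sex of the animals, and neither agent alone was analysed here. Differences between the sections therefore have no replicate check, no test was run, and all intervals are 95% intervals that cover counting error only. Intervals on transcripts take each transcript as independent, although several often lay in 1 cell outline. Outlines with at least 3 held 44.9% of the Cd8a and 39.9% of the Ctla4 transcripts in mock outlines. In SspA+HDM they held 46.6% and 42.5%. Where transcripts clump in this way the intervals are too narrow.

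T cells recognise antigen through a receptor that reaches the cell surface only with the CD3 chains, and Cd3d encodes the delta chain of that complex. Mouse epidermis is known for a resident population of gamma-delta T cells that sit between keratinocytes, while the dermis holds T cells of both the alpha-beta and the gamma-delta type. Cd8a encodes the alpha chain of the CD8 co-receptor of cytotoxic T cells, and is also found on some dendritic cells. Ctla4 encodes an inhibitory receptor of regulatory and activated T cells, and Rac2 a small GTPase found across blood-derived cells, T cells included. Of the T cell markers listed for this work the panel held Cd3d, Cd8a and Ctla4 only, so CD4, gamma-delta and regulatory T cells could not be separated here.

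Each section held 2 separate strips of skin, which are parts of a section and not replicates; the labels do not tie them to animals. The deposited outlines numbered 15932 in mock and 46142 in SspA+HDM, and a typical outline (the median) held 103 transcripts in the former and 121 in the latter. No cell name was shared by the sections. The most frequent control feature had 34 transcripts in mock outlines and 127 in SspA+HDM outlines, against 69 and 975 for Cd8a, the rarest of the 4 genes.

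Relative to the rest of the panel, Cd8a differed most of the 4 genes between the sections, then Rac2 and Cd3d, and the level of Ctla4 was nearly equal. Levels are given as CPM, the transcripts of a gene inside outlines per 1000000 panel transcripts. Cd3d stood at 123 CPM (95% interval 110 to 139) in the mock section, against 205 (195 to 215) in the SspA+HDM section, and the ratio of the second over the first was 1.66 (1.46 to 1.89). The Cd8a level was 29.7 CPM after PBS and 123 after SspA and HDM, which gives 4.14 (3.24 to 5.37). The Cd8a ratio ranked 23 from the top among 346 panel genes that reached 100 transcripts in either section.

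Rac2 stood at 462 CPM in the mock section and at 987 in the other, a ratio of 2.14 (2.0 to 2.28). Ctla4 had 167 CPM in the mock section, against 151 in SspA+HDM, and the interval of its ratio of 0.904 was 0.805 to 1.02. Thus 2 of the 4 genes were higher by 2-fold or more in SspA+HDM, as were 14.7% of the 346 genes, and none was lower by as much, as were 12.7%. Without a minimum on the quality score the Rac2 ratio was 1.96, which leaves Cd8a alone past 2-fold, as were 10.8% of 379 genes then. The median log2 ratio of the 4 genes was 0.91, against 0.05 over the 346.

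**Figure D1:**
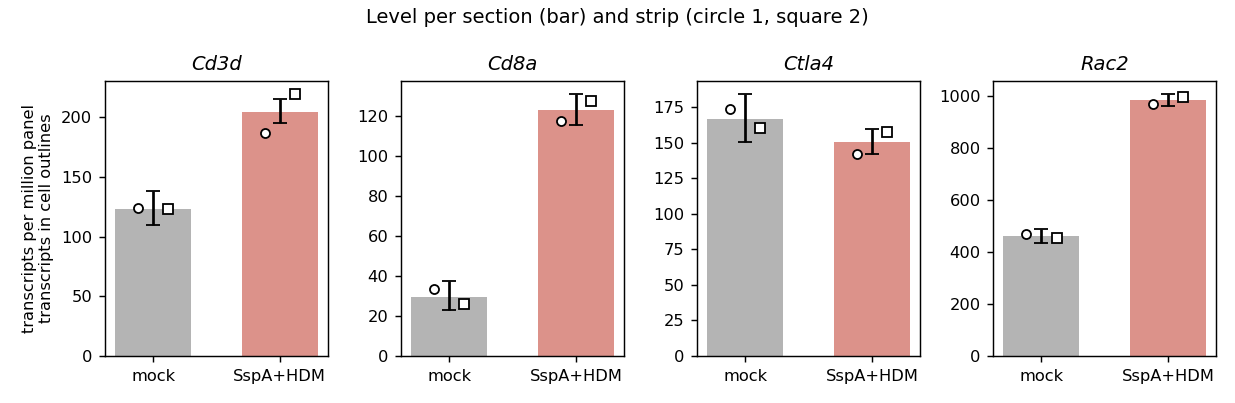
Level of each gene in CPM inside cell outlines (y axis, from 0) in the mock and SspA+HDM sections. Bars are whole sections with 95% counting intervals, and the circle and square are strips 1 and 2; both SspA+HDM strips lie above both mock strips for Cd3d, Cd8a and Rac2 and below them for Ctla4.

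By strip, Cd3d stood at 124 and 123 CPM in mock and at 187 and 219 in SspA+HDM. Cd8a stood at 33.5 and 26.2 in mock strips and at 117 and 128 in the others, and Ctla4 at 174 and 160 against 142 and 158. The strips of a section differed less than the sections did, except for Ctla4. For Cd3d the ratios of an SspA+HDM strip over a mock strip ran from 1.51 to 1.79, for Cd8a from 3.50 to 4.87 and for Rac2 from 2.07 to 2.20. For Ctla4 they ran from 0.819 to 0.983. The Ctla4 level was thus slightly lower in each SspA+HDM strip. The interval of its ratio over whole sections included 1, but it lay under 1 without a quality minimum (0.812 to 0.988), at a minimum of 30 (0.776 to 0.991), over nuclei (0.639 to 0.831), without the 5 most abundant genes (0.787 to 0.994) and without SspA+HDM strip 2 (0.747 to 0.977).

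The scale matters for Ctla4. The SspA+HDM section held more outlines over nearly the same length of skin, 15.4 mm against 13.9 mm in mock. Per mm of strip, mock held 20.6 transcripts of Cd3d, 4.95 of Cd8a, 27.8 of Ctla4 and 77.1 of Rac2. SspA+HDM held 106, 63.5, 77.9 and 509. The ratios were 5.14, 12.8, 2.80 and 6.61, beside 3.1 for all panel transcripts, so that Cd3d, Cd8a and Rac2 lay above the panel and Ctla4 below it. All 4 genes passed 2-fold on that scale, as did 77.5% of the 346. In these section totals, more cells of a type and more RNA per cell cannot be told apart.

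Decoding quality was uneven among the genes. Over the panel, 79.4% of decoded gene calls in mock, and 78.1% in SspA+HDM, reached the quality minimum, and for Cd3d, Ctla4 and Rac2 the shares were 62.4% to 81.4%. For Cd8a the share was 39.4% in mock and 61.4% in SspA+HDM. Without the minimum the Cd8a ratio fell to 2.54, still above 1. The part that low-quality calls play in the mock Cd8a level was not tested.

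Transcripts of the 3 T cell genes overlapped nuclei more often than the panel did. In mock 60.8% of Cd3d, 46.1% of Cd8a and 76.2% of Ctla4 transcripts overlapped a nucleus, against 24.4% for the panel. In SspA+HDM the shares were 60%, 66.3% and 76.8%, against 30.9%. Rac2 was less nuclear, at 36.0% and 46.0%.

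To place the transcripts, each strip was divided into epidermis, follicle and dermis or below. A spot was epithelial where at least 8% of the gene transcripts within 15 µm came from 4 epithelial or 6 epidermal differentiation genes, the members left out. Epithelium above the lower edge of the outer layer was called epidermis and deeper epithelium follicle. The outer layer so drawn, which includes a blur of the search radius, had a median thickness of 54.9 µm in mock and 95.8 µm in SspA+HDM. The epidermis covered 0.766 mm² in mock and 1.76 mm² in SspA+HDM. Of Lor, a gene of the cornified layer, 96.3% lay in the mock epidermis (95.8% in SspA+HDM). Lor is among the 6 differentiation genes, so its place in epithelium was partly set by the rule. Hair follicle genes were not used by the rule. In mock follicles lay 90.8% of Lhx2 (96.2% in SspA+HDM), 76.9% of Tbx1 (91.1%), 74.8% of Sox9 (85.4%) and 61.2% of Krt79 (77.7%). Of Krt79, 35.4% lay in the mock epidermis. Of Lum, a fibroblast gene, 17.3% lay in the mock epidermis, against 7.82% in SspA+HDM. Actn3, a skeletal muscle gene, had 99.6% and 98.6% of its transcripts in the dermis or below.

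In mock skin, Cd3d and Ctla4 lay mainly in the epidermis, Rac2 in the dermis or below, and Cd8a was spread over the zones. The mock shares of Cd8a and Rac2 depended on how the zones were drawn: over the alternatives the epidermal share ran from 11.6% to 59.4% for Cd8a and from 16.1% to 36% for Rac2. Of 287 placed Cd3d transcripts in mock, 197 lay in the epidermis (68.6%, 62.9 to 74.0%), 37 in follicles and 53 in the dermis or below. The epidermal share of Ctla4 was 69.5% of 390, that of Rac2 20.9% of 1102, and that of Cd8a 23.2% of 69. The panel as a whole had 32.4% of its transcripts there.

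The order was another in SspA+HDM. Cd8a was now the most epidermal of the 4, with 590 of 974 transcripts in the epidermis (60.6%, 57.4 to 63.7%), while Cd3d stood at 52.6% of 1624. The epidermal share of Ctla4 was 33.4% of 1199, and its largest share, 47.7%, lay in the dermis or below. Rac2 had 30.1% in the epidermis and 56.3% in the dermis or below, beside 46.7% and 33.1% for the panel.

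Counted per area, Cd3d was denser in all 3 zones of SspA+HDM, most of all in the dermis. Its epidermal density went from 257 to 485 transcripts per mm², a ratio of 1.89 (1.61 to 2.22), near the ratio of 2.09 for all panel transcripts there. In follicles it went from 123 to 292 per mm², a ratio of 2.37 (1.68 to 3.43), against 1.41 for the panel, although this ratio ran from 1.49 with follicles told by follicle genes to 5.29 with a radius of 25 µm. In the dermis or below it went from 24.9 to 140.5 per mm², a ratio of 5.63 (4.24 to 7.63), against 1.29.

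Relative to the transcripts of the same zone, the epidermal level of Cd3d thus did not rise, with 253 CPM of the zone in mock against 228 in SspA+HDM (ratio 0.904, 0.774 to 1.06). The level in the dermis or below was 41.3 CPM of that zone against 181, which is a ratio of 4.38 (3.29 to 5.93). In follicles it was 107 against 179 (ratio 1.68, 1.19 to 2.43). These ratios do not place the rise over the whole section. The epidermis, where Cd3d was frequent, held 46.7% of the panel's transcripts in SspA+HDM against 32.4% in mock.

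Cd8a differed most in the epidermis. Its density there was 20.9 transcripts per mm² in mock, from 16 transcripts, against 335 after SspA and HDM (ratio 16.1, 9.80 to 28.3). In follicles the densities were 66.7 and 241 per mm², and in the dermis or below 15.5 and 42.2, with ratios of 3.61 and 2.72, and the follicle ratio ran from 2.64 to 11 over the zone settings. The epidermal ratio was sensitive to decoding quality, since 20% of 80 decoded mock transcripts there reached the minimum, against 60.5% of 976 in SspA+HDM. Without the minimum it was 5.31. With a search radius of 25 µm it was 8.40 and with 10 µm 26.9, and it reached 27.3 with the 4 epithelial genes alone.

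Ctla4 differed in opposite directions in epidermis and dermis. Its epidermal density was 354 transcripts per mm² in mock against 227 in SspA+HDM (ratio 0.643, 0.549 to 0.753). In the dermis or below it went from 42.3 to 168 per mm², a ratio of 3.96 (3.17 to 5.0), and in follicles from 96.8 to 228, a ratio of 2.36. The epidermal ratio stayed under 1 under all zone settings tried, between 0.539 and 0.924, although with a search radius of 25 µm its interval of 0.802 to 1.06 included 1. It was 0.773 without strip 1 and 0.50 without strip 2 of SspA+HDM. The epidermis held 271 of the 390 placed Ctla4 calls of mock. Whether these epidermal calls stand for Ctla4 RNA was not tested, and every ratio that includes them, that of the whole section among them, depends on it.

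Rac2 was denser everywhere in SspA+HDM. The densities were 300.2 and 1341 transcripts per mm² in the epidermis, 410.4 and 1069 in follicles, and 352 and 1293 in the dermis or below. The ratios were 4.47, 2.60 and 3.67, all above the panel's, and the follicle ratio ran from 2.10 to 4.54 over the zone settings. In mock the Rac2 density varied little between zones, with intervals that overlapped between the epidermis and the dermis.

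**Figure D2:**
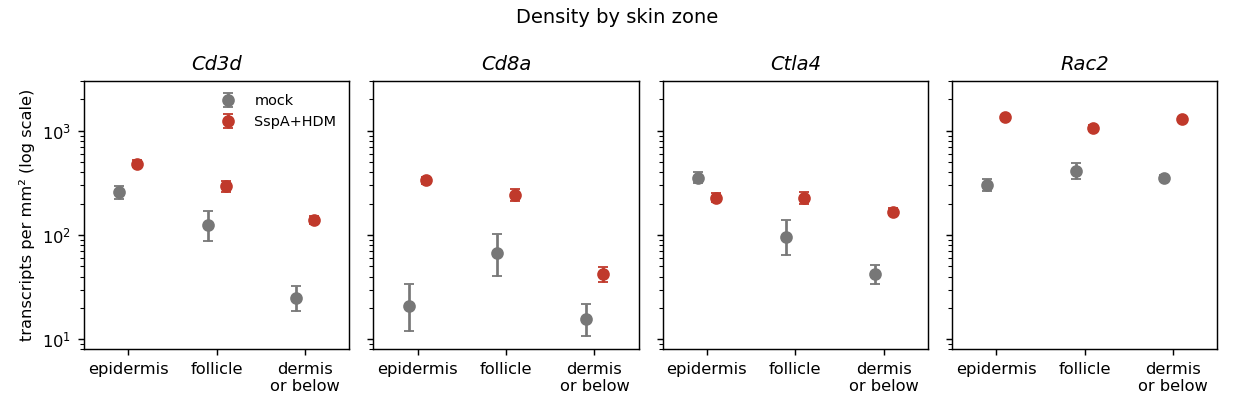
Transcripts per mm² of tissue (y axis, log scale) in the epidermis, follicle and dermis or below, for mock (grey) and SspA+HDM (red), with 95% counting intervals. Ctla4 in the epidermis is the single case in which the mock point lies above the SspA+HDM point, at 354 against 227 per mm²; the widest gap is that of Cd8a in the epidermis.

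The dermal transcripts of Cd3d, Ctla4 and Cd8a lay close to the epithelium. Of the Cd3d transcripts in the dermis or below, 81.1% in mock and 81.6% in SspA+HDM lay within 25 µm of epithelium, against 20.8% and 27.4% for the panel. For Ctla4 the shares were 72.2% and 80.6%, for Cd8a 90.9% and 68.8%, and for Rac2 49.0% and 49.7%, beside 54.5% and 45.4% for the leukocyte gene Laptm5. The muscle took 3 of 53 Cd3d transcripts of that zone in mock and 4 of 479 in SspA+HDM. For Rac2 it took 134 of 749 and 427 of 4408 (17.9% and 9.69%), for Laptm5 14.8% and 11.4%. The muscle held 57.9% and 45.7% of the panel's transcripts of the same zone, so that the panel is a muscle-rich comparison.

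**Figure D3:**
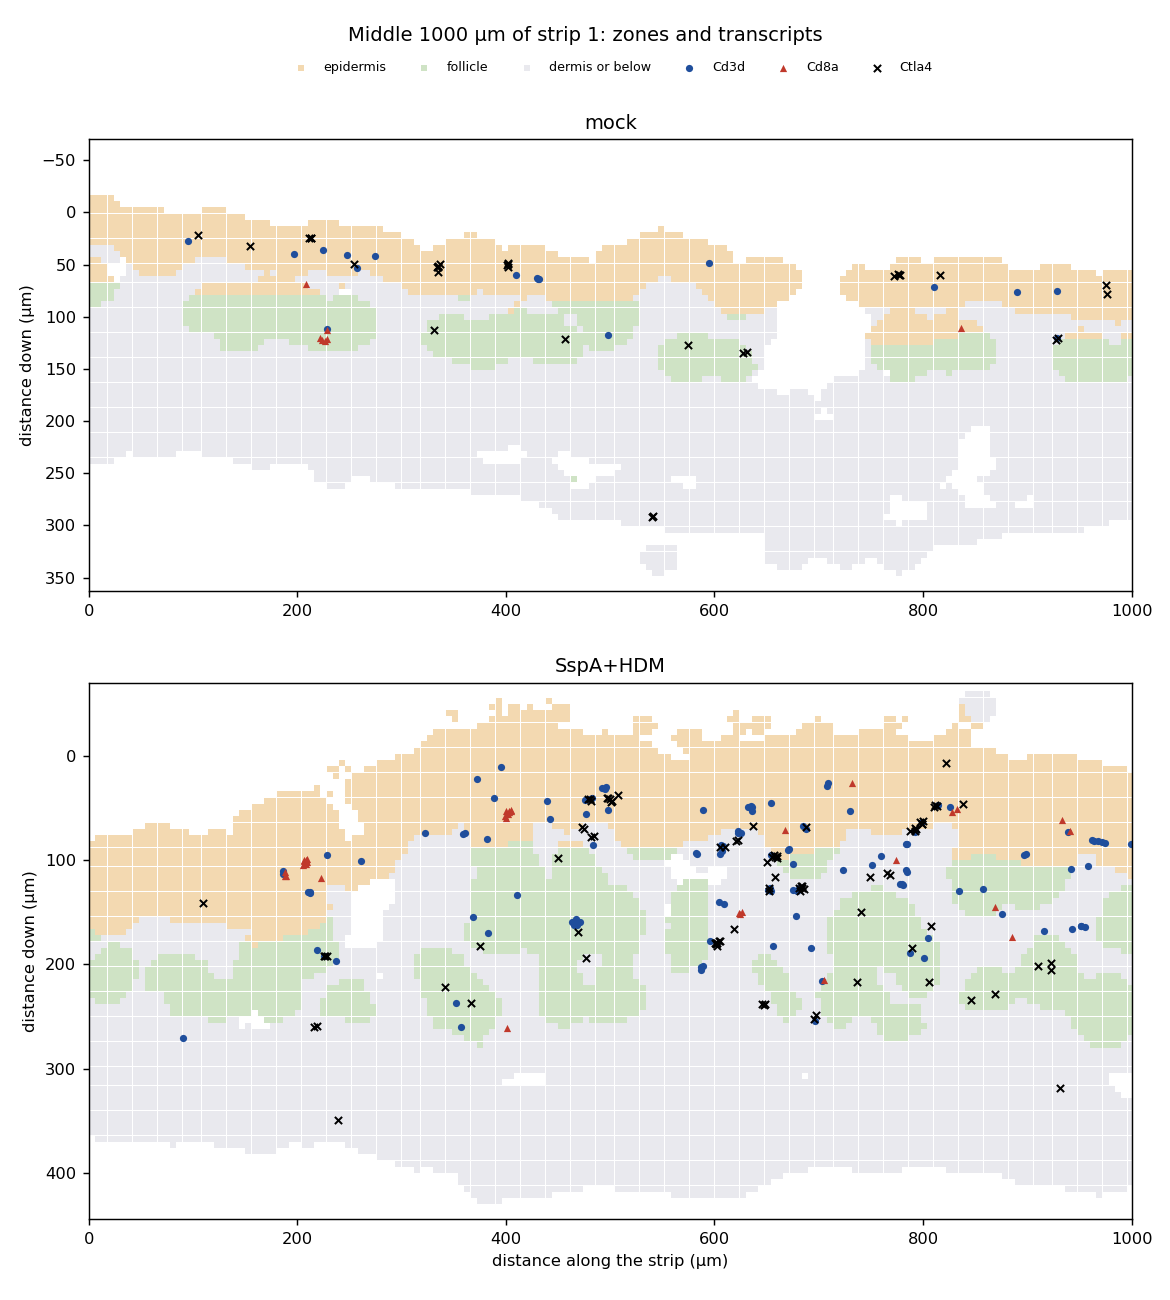
Positions of Cd3d (blue circles), Cd8a (red triangles) and Ctla4 (black crosses) in the middle 1000 µm of strip 1 of each section, at 1 scale, with distance along the strip on the x axis and distance down on the y axis, both in µm; shading marks epidermis, follicle and dermis or below. The mock window holds 17, 7 and 31 transcripts of the 3 genes and the SspA+HDM window 117, 34 and 88; mock Ctla4 forms small clumps in the epidermis, and in SspA+HDM the 3 genes lie along the lower epidermis, around follicles and in the upper dermis.

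Within the epidermis, Ctla4 of mock skin lay nearer to the surface than Cd3d did. Depth was taken as a percentage of the thickness of the outer layer, with 0 at the surface. In mock the median depth was 19.2% for Ctla4 and 34.8% for Cd3d. Ivl and Lor, which encode cornified-envelope proteins of the upper epidermis, had medians of 19.1% and 16.1%, and Col17a1, a collagen of the basal cells' anchoring junctions, had 28.4%. The depth of mock Ctla4 was thus that of a differentiation gene, and Cd3d lay deeper than the basal gene.

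The members had nearly equal depths in SspA+HDM. The medians were 60.8% for Cd3d, 60.2% for Cd8a, 59.0% for Ctla4 and 60.2% for Rac2, beside 59.4% for Col17a1, 22.9% for Ivl and 11.6% for Lor. Of the epidermal Ctla4 transcripts, 86.3% (81.7 to 90.2%) lay in the outer 50% of the layer in mock and 30.5% (26.0 to 35.3%) in SspA+HDM. For Cd3d the shares were 71.1% and 30.8%. The basal gene itself went from 82.7% to 31.6%, so the depths are to be read against it and not between sections.

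**Figure D4:**
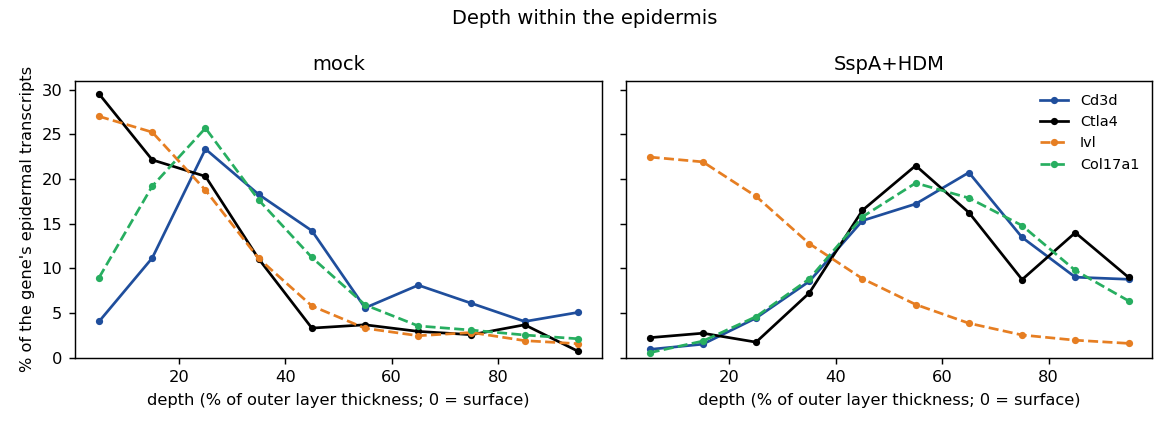
Share of each gene's epidermal transcripts (y axis, percent) by depth in steps of 10% of the outer layer's thickness (x axis, 0 at the surface), for Cd3d, Ctla4, the differentiation gene Ivl and the basal gene Col17a1. In mock the Ctla4 curve follows Ivl, with medians of 19.2% and 19.1%; in SspA+HDM the Ctla4 and Cd3d curves both follow Col17a1, with medians of 59.0%, 60.8% and 59.4%.

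The outlines give the same contrast cell by cell. Cd3d was detected in 218 mock outlines (1.37%, 1.19 to 1.56%) and in 1187 SspA+HDM outlines (2.57%, 2.43 to 2.72%). Muscle outlines, which should lack the gene, held it in 0.171% and 0.164%, at a higher median of 314 and 317 transcripts per outline against 103 and 121 over all. With all outlines thinned to 50 transcripts, after leaving out 3090 and 7664 shallower ones, the Cd3d shares were 0.701% and 1.35%.

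Counts per positive outline were low and alike. A single Cd3d transcript was found in 77.5% of positive mock outlines and 74.3% of positive SspA+HDM outlines, and no outline had more than 6. Positive outlines lay closer together in SspA+HDM, with a median distance of 34.8 µm to the next one in mock and 15.5 µm in SspA+HDM. They were also more numerous there, 1187 against 218, and the distances were not compared at equal numbers. For Rac2 outlines the distances were 22.0 and 12.1 µm. Along the strips no 0.5-mm stretch was without Cd3d in either section, and a stretch held between 3 and 23 transcripts in mock and between 9 and 86 in SspA+HDM.

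The other genes were sparser or denser by role. Cd8a was found in 0.257% of mock and 1.16% of SspA+HDM outlines, Ctla4 in 1.42% and 1.55%, and Rac2 in 5.15% and 11%. Muscle outlines held Cd8a in 0.0571% and 0.0328%, Ctla4 in 0.228% and 0.427%, and Rac2 in 4.63% and 8.63%. The Rac2 share of muscle outlines came close to that of all outlines, at more than 2 times the transcripts per outline. Thinned to 50 transcripts, Rac2 was in 1.24% and 2.05% of muscle outlines and in 2.64% and 5.78% of all outlines.

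An outline is not a pure cell in this tissue. Of the Cd3d outlines in the epidermis, 88.7% in mock and 90.8% in SspA+HDM also held Trim29, an epithelial gene, as did 89.0% and 90.4% of all epidermal outlines. The 5 macrophage genes on the panel differed in direction. In mock, Mpeg1 was in 13.8% of Cd3d outlines against 7.74% of all outlines. Ms4a6c was in 9.63% against 8.60%, and Marco in 1.38% against 1.04%. Ms4a7, at 2.29% against 4.86%, and Clec4a3, at 4.13% against 8.55%, were lower. In SspA+HDM Ms4a6c was in 18.4% of Cd3d outlines against 13.2% of all outlines, and Mpeg1 in 12.2% against 10.5%. There Ms4a7 stood at 10.4% against 10.8% and Marco at 0.0842% against 0.288%. Clec4a3 was near the 9.74% of all outlines. How much of any pairing comes from such mixing was not tested.

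Cd3d outlines held Rac2 more often than other outlines did in both sections, and both shares were higher in SspA+HDM. The share with Rac2 was 33.9% in mock (74 of 218, 27.7 to 40.6%) and 62.3% in SspA+HDM (739 of 1187, 59.4 to 65.0%), against 5.15% and 11% of all outlines. Thinned to 50 transcripts it was 30% and 51.8%. Within 10 µm of a Cd3d transcript there was a Rac2 transcript in 45.0% of cases in mock and 86.3% in SspA+HDM, where 8.73% and 20.5% of the panel's transcripts had Rac2 as near.

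Laptm5, a lysosomal membrane protein of blood-derived cells and beside Rac2 the only panel gene on the list of general leukocyte markers, was paired with Cd3d too. It was in 58.3% of mock and 73.0% of SspA+HDM Cd3d outlines, against 19.1% and 25.9% of all outlines. In the epidermis alone the shares were 54.3% and 73.3%, against 15.7% and 17.8%.

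More Cd3d outlines held Cd8a in SspA+HDM than in mock, and so did more of all outlines. Of the mock Cd3d outlines, 4 held Cd8a (1.83%, 0.502 to 4.63%), and of those in SspA+HDM 157 did (13.2%, 11.4 to 15.3%), with 1.11% and 9.44% after thinning. Of all outlines, 0.257% in mock and 1.16% in SspA+HDM held Cd8a, with 0.148% and 0.645% after thinning. By zone of SspA+HDM the share was 17.5% in the epidermis, 15.8% in follicles and 4.85% in the dermis or below, where 2.02%, 1.04% and 0.576% of all outlines held Cd8a. Seen from Cd8a, 9.76% of its mock outlines and 29.4% of its SspA+HDM outlines held Cd3d, against 1.37% and 2.57% of all outlines. Of its transcripts, 13.2% and 60.5% had Cd3d within 10 µm, against 3.88% and 6.98% of the panel's. Of 96 SspA+HDM outlines with at least 3 Cd8a transcripts, 61 were epidermal, and 40 of these held Cd3d.

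Ctla4 joined Cd3d in another place. In SspA+HDM 24.5% (20.2 to 29.2%) of the dermal Cd3d outlines held Ctla4, against 11.1% (8.65 to 13.9%) of the epidermal and 7.89% of the follicular ones. In mock the shares were 26.8% of 41 dermal and 5.30% of 151 epidermal Cd3d outlines. Of all SspA+HDM outlines, 1.73% of the dermal, 1.71% of the epidermal and 1.15% of the follicular ones held Ctla4. In mock 0.773% of all dermal and 2.95% of all epidermal outlines did. Cd8a and Ctla4 together with Cd3d were found in 0 mock outlines and in 19 SspA+HDM outlines, 16 of them with Rac2 as well. Cd3d outlines without any other of the 4 genes made up 61.9% in mock and 31.6% in SspA+HDM, and those with Rac2 alone beside it 26.6% and 42%.

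The epidermal Ctla4 of mock skin stood outside the outlines that held other leukocyte genes. Of 152 mock epidermal outlines with Ctla4, 5.26% held Cd3d, 5.92% Rac2 and 13.8% Laptm5, near the 2.93%, 3.47% and 15.7% of all epidermal outlines. Of 36 mock outlines with at least 3 Ctla4 transcripts, 28 were epidermal, and 1 of these 28 held Cd3d. In SspA+HDM the 244 epidermal Ctla4 outlines held Cd3d in 26.6%, Rac2 in 48.0% and Laptm5 in 57.4%, against 4.11%, 9.33% and 17.8% of all epidermal outlines there.

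Whether these mock epidermal calls stand for Ctla4 RNA cannot be told from these data. Their outlines were large, and the genes that led in them were looked up after these values had been seen. Their median area was 253 µm² against 103 µm² for other epidermal outlines, and their median depth 187.5 against 127 transcripts. Against the other epidermal outlines they held 9.09-fold more Upk3b, from 17 transcripts, 6.12-fold more Aif1l and 4.33-fold more Rab3b, from 20 transcripts. Lce1m, which belongs to the late cornified envelope family, was 4.30-fold higher and Crct1 2.61-fold. Of the 6 differentiation genes of the zone rule, Lce1m alone was among the 8 genes of highest fold. Laptm5 was at 0.677 times and Ctla2a at 0.397 times the level of the other outlines. Of 353 epidermal Ctla4 transcripts decoded in mock, 76.8% reached the quality minimum, beside 79.4% of all gene calls of the section. Of those that reached it, 80.1% lay over a nucleus.

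Each gene was also counted by whether its outline held another leukocyte gene. An outline was called marked where it had at least 1 transcript of Cd3d, Rac2 or Laptm5, the gene in question left out. For Ctla4, marked outlines held 8.97 transcripts per mm of strip in mock against 60.7 in SspA+HDM (ratio 6.77, 5.61 to 8.22). The other outlines held 18.9 and 17.2 per mm, a ratio of 0.911 (0.765 to 1.09). In the epidermis the ratios were 6.76 for marked and 0.353 (0.273 to 0.454) for other outlines. Marked outlines were themselves more numerous in SspA+HDM, 13769 against 3432 in mock. In the epidermis they numbered 3138 against 953, which was 22.0% against 18.5% of its outlines. Epidermal outlines also held more transcripts there, with medians of 222 against 128. How far this shifts the split between marked and other outlines was not tested.

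Of all Ctla4 transcripts in outlines, 32.2% (27.6 to 37.1%) lay in marked outlines in mock and 77.9% (75.5 to 80.2%) in SspA+HDM. Marked outlines were 21.5% and 29.8% of all outlines. Epithelial outlines without Cd3d held 65.7% of Ctla4 transcripts in mock and 28.8% in SspA+HDM, and Cd3d outlines 12.1% and 38.5%. The shares of the other genes changed less, from 71.1% to 86.1% for Cd3d, from 76.8% to 84.5% for Cd8a and from 69.1% to 77.8% for Rac2. Per mm, the ratio in marked outlines was 6.22 for Cd3d, 14.1 for Cd8a and 7.45 for Rac2.

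**Figure D5:**
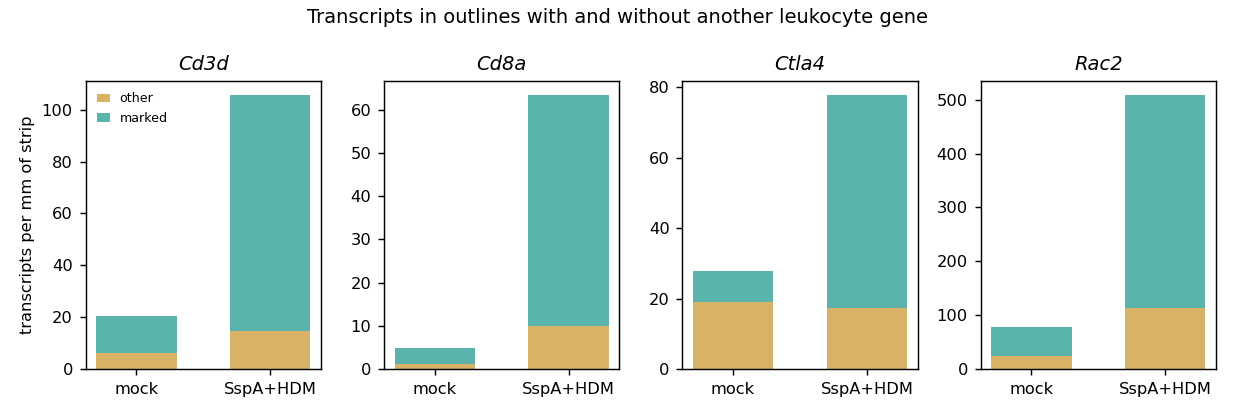
Transcripts per mm of strip (y axis, from 0) in outlines with another leukocyte gene (marked, green) and without (other, brown), stacked, for each gene in mock and SspA+HDM. For Ctla4 the part outside marked outlines is 18.9 in mock and 17.2 in SspA+HDM, while the marked part goes from 8.97 to 60.7.

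Rac2 was shared among several kinds of outline. Of its mock transcripts in outlines, 10.3% lay in Cd3d outlines, 30.6% in outlines with at least 3 macrophage transcripts, 5.59% in outlines with at least 2 of Cpa3, a mast cell protease, and 15% in epithelial outlines. In SspA+HDM the shares were 21.4%, 27.1%, 4.23% and 21%. Each outline was counted under the first of these kinds that it met. The later shares therefore leave out outlines of the earlier kinds. With all outlines of each kind counted, Rac2 was in 24% of macrophage, 22% of Cpa3 and 2.69% of epithelial outlines in mock. In SspA+HDM it was in 33%, 32.1% and 6.9% of them. Rac2 was therefore found more often in outlines of each of these kinds in SspA+HDM, and a larger share of it lay in Cd3d outlines. The rise was not limited to these kinds. Over all outlines Rac2 went from 5.15% to 11%, and in muscle outlines from 4.63% to 8.63%. Cd3d outlines were themselves 1.37% of all outlines in mock and 2.57% in SspA+HDM.

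The genes most like each member were named by their level in positive against other outlines, ranked by the lower of the 2 sections' folds among genes with enough counts. For Cd3d, over 166 genes, they were Pglyrp1, a peptidoglycan-binding protein (8.17-fold in mock, 5.36-fold in SspA+HDM), Ncf4, an NADPH oxidase subunit (5.30 and 5.39), Laptm5 (4.67 and 6.10), Ctla2a, a protease inhibitor (20.6 and 3.50), and S100a4, a calcium-binding protein (3.21 and 6.24). For Rac2, over 230 genes, they were Laptm5 (5.50 and 6.29), the chemokine Ccl9 (5.47 and 6.31), the macrophage genes Mpeg1 (6.08 and 5.00) and Ms4a6c (4.96 and 5.07), and Cpa3 (6.49 and 4.89).

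Ctla2a marked the mock epidermal Cd3d outlines. It had 318 transcripts in 151 such outlines, at 22.2 times its level in other epidermal outlines, and 6.57 times in SspA+HDM. Mock epidermal Rac2 outlines had it at 13.3 times. In mock epidermal Ctla4 outlines it was below the level of the other outlines, as given above.

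Mock Cd8a was uneven along the skin. Of 37 transcripts in strip 1, 20 lay in the first 0.5 mm, and of 32 in strip 2, 8 did. The last 0.475 mm of strip 2 held another 7, and the stretches between held 0 to 6. Without the first 0.5 mm of both mock strips, a setting added after this was seen, the Cd8a ratio over the section was 6.49 in place of 4.14. Of the mock Cd8a transcripts, 37.7% lay in macrophage outlines without Cd3d and 10.1% in Cd3d outlines, against 7.69% and 43.4% in SspA+HDM.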

How the data were processed

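Per the labels and the file headers, the authors deposited for each section a table of decoded Xenium transcripts, with gene, position, outline, overlap with a nucleus and a quality score (up to 40), and the vertices of the outlines. The deposited score was not filtered; a minimum of 20 was applied here. Positions were taken as µm. Decoding and segmentation software is not given in the sources used here.

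Level was the count inside outlines per 1000000 panel transcripts. Intervals at 95% were exact Poisson, Clopper-Pearson (shares) or exact conditional binomial (ratios). All of them take transcripts or outlines as independent. With 1 sample per treatment there was no test. Zones were drawn on 2-µm pixels with at least 50 transcripts within 15 µm. The rule first planned, with 4 epithelial genes alone, put 68.8% of Lor and 73.1% of Cnfn, both genes of the outer epidermis, in the dermis of SspA+HDM. It was therefore replaced by a second rule of 10 genes listed at the same time, which puts 95.8% and 97.7% in the epidermis. Lor and Cnfn are themselves among those 10 genes, so these shares are no independent check of the second rule. Muscle outlines had at least 30% muscle-gene transcripts. Epithelial outlines had at least 8% from the 10 genes.

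The named genes were the 4 members and, for Cd3d and Rac2, the 5 genes of highest fold in positive outlines with at least 100 transcripts per section and 10 in positive outlines; other genes were chosen after their values were seen. The members and lists were chosen with earlier results of these data known. The ratio code was tested on simulated data. Python 3.11.15, pandas 2.3.3, numpy 2.4.6, SciPy 1.17.1 and matplotlib 3.10.9 were used.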

Additional observations from a re-analysis of the deposited data

Results flagged for a closer look

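The density of Ctla4 moved in opposite directions in the layers of the skin: SspA+HDM over mock it was 0.643 in the epidermis and 3.96 in the dermis or below. In epidermal outlines with another leukocyte gene (Cd3d, Rac2 or Laptm5) Ctla4 per mm of strip was higher in SspA+HDM, at a ratio of 6.76. Such outlines numbered 3138 there against 953 in mock. In the other epidermal outlines Ctla4 was lower, at 0.353. Whether the mock epidermal calls stand for Ctla4 RNA was not tested. With 1 section per treatment the difference between the layers was not tested.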

How the results depend on the processing

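The ratios of Cd3d, Cd8a and Rac2 stayed above 1 under the alternatives run, and that of Ctla4 over whole sections lay on either side of 1 by scale. Of 133 alternative values of the main results, 90 moved by less than their counting interval and 43 by more. Per mm of strip the level ratios were 5.14 for Cd3d, 12.8 for Cd8a, 2.80 for Ctla4 and 6.61 for Rac2, so that 4 genes passed 2-fold, as did 77.5% of the panel genes tested. Per outline they were 1.95 for Cd3d, 1.06 for Ctla4 and 2.52 for Rac2. Over nuclei they were 1.33 for Cd3d and 0.728 for Ctla4. At a quality score of 30 Cd3d was at 1.91. Without a quality minimum Cd8a was at 2.54 and Rac2 at 1.96, so that 1 gene passed 2-fold, as did 10.8% of the panel genes. Without the first 0.5 mm of both mock strips Cd8a was at 6.49.

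In mock, 45.0% of Cd3d transcripts had Rac2 within 10 µm, and 42.9% of outlines with at least 2 Cd3d transcripts held Rac2. In SspA+HDM 86.3% of transcripts and 81.3% of outlines did, so counted. The share of Cd3d outlines with Rac2 there was 54.9% without a quality minimum and 51.8% after thinning.

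The epidermal share of Cd3d in mock was 80.1% at 4% epithelial transcripts, 61.3% with a radius of 10 µm and 85.0% with 25 µm. In SspA+HDM it was 61.9% at 4%, 49.0% at 12%, 48.6% with 10 µm, 63.7% with 25 µm, 58.3% with follicles told by follicle genes, and 2.89% under the rule of 4 epithelial genes alone, which misplaced the outer epidermis. The epidermal Cd8a ratio was 8.23 at 4%, 8.40 with 25 µm, 5.31 without a quality minimum, and up to 27.3 with 4 genes alone. The epidermal Ctla4 ratio was 0.833 at 4%, 0.548 at 12%, 0.539 with 10 µm, 0.924 with 25 µm, 0.831 with 4 genes alone and 0.789 without a quality minimum. Leaving out an SspA+HDM strip gave 0.773 or 0.50. The dermal Ctla4 ratio was 3.15 with 4 genes alone and 3.14 without a quality minimum. Other causes of these shifts were not tested.

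No paired analysis was possible because each treatment had 1 sample. Mock Cd8a rested on 69 transcripts in outlines, so that shares of it by zone and pairing are wide.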

Other observations

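The genes that led in Cd3d outlines of SspA+HDM are given by layer, chosen after their values had been seen. In epidermal Cd3d outlines Ms4a6b, a membrane protein of T cells, was 20.7-fold higher than in other epidermal outlines. The transcription factor Runx2 was 18.4-fold higher, Laptm5 14.4-fold and the chromatin organiser Satb1 13.2-fold. In dermal Cd3d outlines the leading genes were Areg, a ligand of the epidermal growth factor receptor, at 14.2-fold from 17 transcripts, the water channel gene Aqp3 at 10.7-fold, Pglyrp1 at 7.86-fold, Gad1 at 7.22-fold from 10 transcripts, Emb at 6.93-fold and S100a4 at 6.88-fold. Uox, at 6.37-fold from 12 transcripts, and Cstdc4, at 5.92-fold, came next. S100a4 (8.18-fold in the epidermis) and Laptm5 (4.62-fold in the dermis) were thus high in both. Of the dermal Cd3d transcripts of SspA+HDM, 81.6% lay within 25 µm of epithelium, against 27.4% for the panel. How much RNA of nearby epithelium adds to the dermal folds was not tested. Whether these lists differ between the layers was not tested.

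In the dermis or below of mock, Ctla4 outlines had Epcam, an adhesion gene of epithelia and of Langerhans cells, at 13.3 times the level of other outlines, from 15 transcripts. In SspA+HDM the figure was 5.91, and for dermal Cd3d outlines 5.78. Of 55 mock dermal Ctla4 outlines 20% (10.4 to 33.0%) held Cd3d, 41.8% (28.7 to 55.9%) Rac2 and 60% (45.9 to 73.0%) Laptm5. Of all mock dermal outlines 0.577%, 7.75% and 27.4% did. The shares of the mock epidermal Ctla4 outlines were near those of all epidermal outlines, as given above. Il1r2, a decoy receptor for interleukin 1, was 2.21-fold higher in mock epidermal Ctla4 outlines and 3.88-fold higher in dermal ones.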
